A study of Mus musculus with 5 samples.

Results

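Sulf1, Sulf2, Spock1, Spock2 and Spock3 are 5 of the 21887 protein-coding genes on assembled mouse chromosomes in RefSeq (GRCm38.p6, the coordinates of mm10). Sulf1 and Spock1 were chosen by the p-values and fold enrichments of their c-Maf antibody peaks, since the strongest site shared by those libraries lies near Sulf1 and another of the strongest lies inside Spock1. The other 3 genes were added as their relatives. The peaks described are all deposited peaks inside each gene span or within 100 kb of it, a window of 0.369 Mb for Sulf1, 0.282 Mb for Sulf2, 0.687 Mb for Spock1, 0.229 Mb for Spock2 and 0.606 Mb for Spock3. These windows together hold 145 peaks. Since earlier results chose the genes, the values at the Sulf1 and Spock1 sites are given as a description, with no test.

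The data are chromatin immunoprecipitation sequencing (ChIP-seq) peaks from C57Bl/6 bone marrow-derived macrophages. Chromatin was fixed with formaldehyde and precipitated with an antibody to the transcription factor c-Maf in 2 libraries, or with normal rabbit IgG, the isotype control, in 2 libraries. Libraries of each kind carry the numbers 3 and 4, which the series calls biological replicates, and 1 input library of number 4 served as the control of all 4 peak lists. The labels call the cells M2-polarized in culture, the titles carry M0, and no label names an agent, a dose or a time of treatment. No gene was deleted and no transgene is named. A peak list carries no expression value, so neither the cell type nor the activity of any gene named here could be checked. The antibody libraries held 21655683 to 22017759 tags after duplicate filtering. The lists held 23434 and 17620 peaks in c-Maf antibody libraries 3 and 4. They held 58732 and 15568 peaks in isotype libraries 3 and 4. Raw peak counts per gene therefore cannot be compared between lists without these lengths.

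Heparan sulfate proteoglycans are proteins that carry long sulfated sugar chains, and the pattern of sulfate groups decides which growth factors and chemokines the chains hold. Sulf1 and Sulf2 encode secreted sulfatases that act outside the cell and remove sulfate groups from finished heparan sulfate chains, so they edit growth factor signalling after the chains are made. Spock1, Spock2 and Spock3 encode the testicans, secreted proteoglycans of the SPARC family that carry chondroitin and heparan sulfate and have been linked to the control of matrix proteases. c-Maf is a basic leucine zipper factor of macrophages and other cells that binds Maf recognition elements, DNA motifs built on the half-site TGCTGA.

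The strongest c-Maf antibody site stood outside Sulf1 and had no peak in either isotype list. It covered 183 bases on chromosome 1 at 12616179 to 12616361 (mm10 here and below), 75.8 kb outside the Sulf1 span of 12692197 to 12861192. The pileup, which is the number of tags over the peak summit scaled by the authors to the input library, was 29.12 in c-Maf antibody library 3 and 19.74 in c-Maf antibody library 4. Undoing the scaling gave 30 tags (exact 95% Poisson interval 20.24 to 42.83) and 20 tags (12.22 to 30.89). The intervals overlap, and they cover counting error only. In order of p-value the peak was the 1st of 23434 in library 3 and the 2nd of 17620 in library 4.

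The fold enrichment at this site, the authors' ratio of pileup to the local input level with 1 added to both, was 15.06 in library 3 and 10.37 in library 4. The −log10 q was 24.1 and 9.66. The peaks were 182 and 152 bases long, and they shared 151 bases, with summits 41 bases apart. The median lengths in their lists were 63 and 60 bases. These medians equal the fragment lengths used in the peak calling and the shortest peaks of the 5 windows in each list. They are thus no measure of a typical site. The nearest isotype peaks lay 14.2 kb away in isotype library 3 and 41.3 kb away in isotype library 4. An unlisted site is not a site without tags. At the input level of 1.0 tag found here in the c-Maf antibody lists, a p-value of 0.01 takes 5 tags in either isotype library. Up to 4 could thus be present there, or more over a stretch shorter than a fragment.

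The genes on both sides of the Sulf1 site were few. On the side of Sulf1 the nearest are the pseudogene Gm6216 at 39.5 kb and the long noncoding RNA gene Gm17644 at 51.2 kb, both closer than Sulf1 itself. Beyond Sulf1 lie Slco5a1, an organic anion transporter family gene, at 250.2 kb, the pseudogene Gm5250 at 445.6 kb, the long noncoding RNA gene Gm39592 at 474.3 kb, and Prdm14, a regulator of pluripotency, at 497.1 kb. On the other side lie the pseudogene Gm2383 at 49.6 kb, the long noncoding RNA gene Gm39591 at 183.7 kb, the microRNA gene Mir6341 at 190.1 kb, the small nuclear RNA gene Gm22633 at 241.1 kb and the pseudogene Gm7560 at 494.1 kb. The nearest protein-coding gene on that side, A830018L16Rik, is 640.3 kb away. Sulf1 is thus the nearest protein-coding gene by position, and the peaks do not show which gene, if any, the site acts on.

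The rest of the Sulf1 window held weaker peaks that no other list shared. Of the 145 peaks in the 5 windows, 135 were likewise held by 1 list alone. In c-Maf antibody library 3 there were 4 further peaks, all inside the gene, with pileups of 4.85 to 5.82. In library 4 there were 4 further peaks, 1 inside the gene and 3 outside. The highest of these had a pileup of 6.91 and lay inside the gene, 6.2 kb from a boundary, at 12698419 to 12698479, with a −log10 q of 0.86 that did not pass a q-value of 0.05. Isotype library 3 had 14 peaks in the window, 7 of them inside the gene, with pileups of 2.94 to 5.87. Isotype library 4 had 3, with pileups of 3.92 to 6.87. Apart from the strongest site, the c-Maf antibody pileups thus reached 6.91 and the isotype pileups 6.87.

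**Figure D1:**
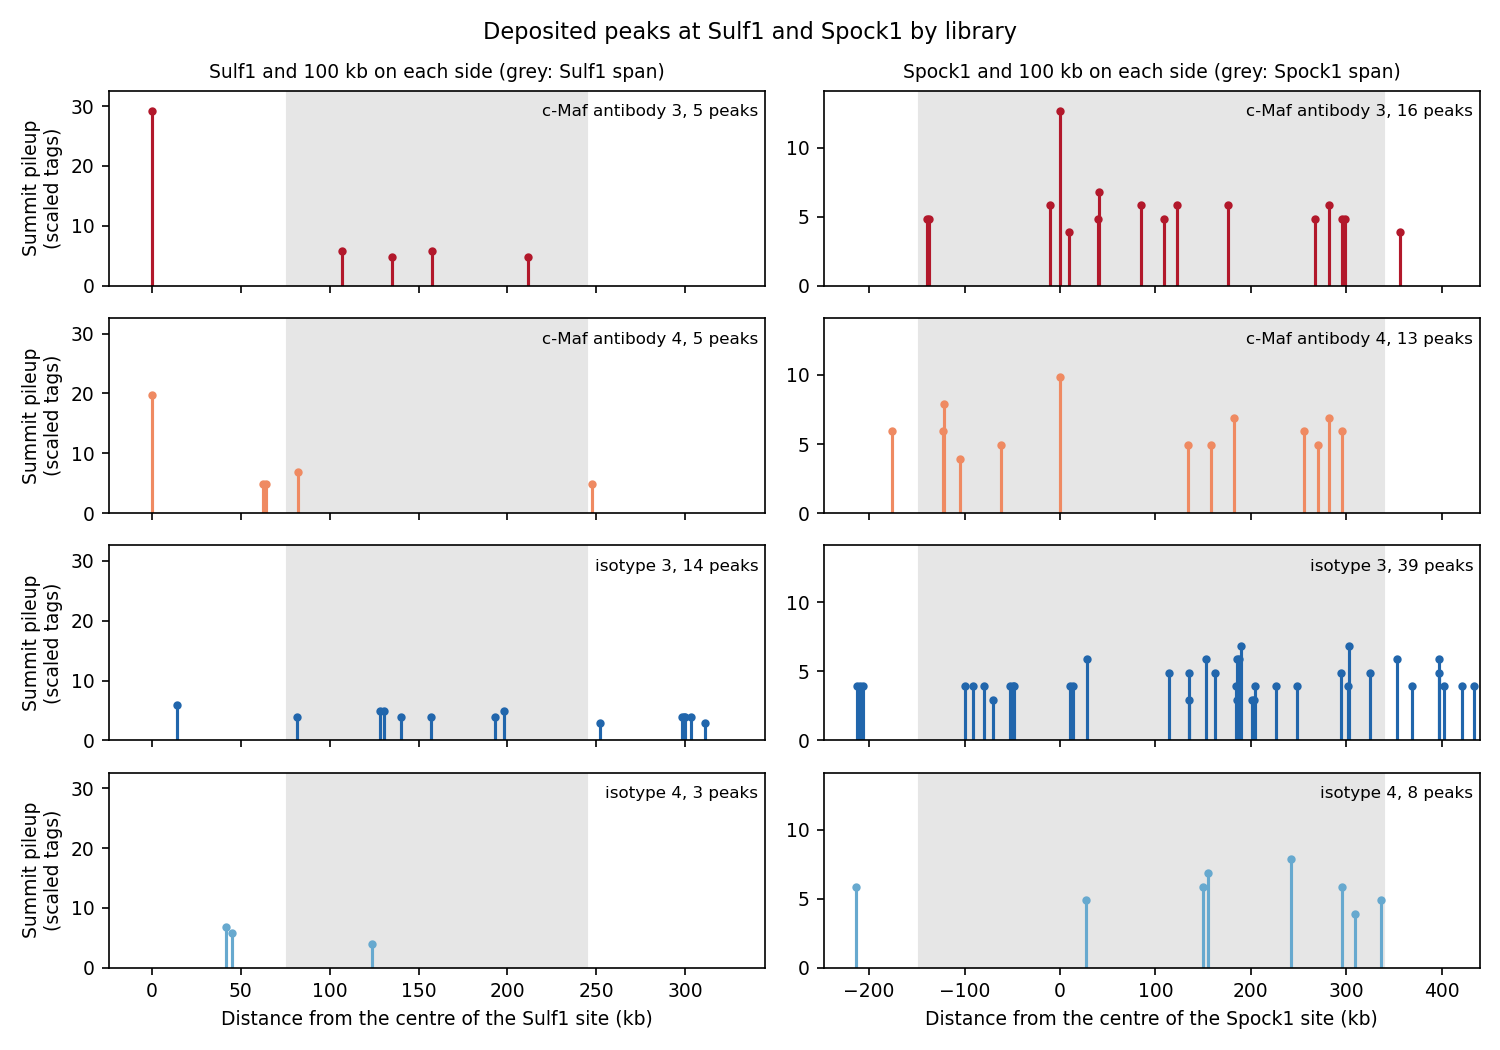
Summit pileup in scaled tags (vertical axes, shared within a column) of every peak in the Sulf1 and Spock1 windows against the distance in kb from the centre of the site, with 1 row for each library and the gene span in grey. The peaks at distance 0, 29.12 and 19.74 at Sulf1 and 12.62 and 9.87 at Spock1, are seen in both c-Maf antibody libraries and have no isotype peak beside them.

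Sulf2, the other sulfatase gene, had 1 c-Maf antibody peak in its window. It spans 166073899 to 166155683 on chromosome 2. No peak of c-Maf antibody library 3 lay in its window, and the nearest was 120.8 kb from the gene. Library 4 had 1 peak, inside the gene at 166091308 to 166091406, with a pileup of 3.95 (4 tags, interval 1.09 to 10.24), a rank of 16153 in its list. Isotype library 4 had no peak within 269.3 kb. Isotype library 3 had 5, and 1 of these, 64.7 kb outside the gene at 166220408 to 166220465, had a pileup of 7.83 and a −log10 q of 1.52. The strongest peak near Sulf2 was therefore an isotype peak, and no region at Sulf2 was held by more than 1 list.

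Spock1 is the longest of the genes, at 487.1 kb, and its window held the most peaks in every library. It spans 57421195 to 57908332 on chromosome 13, with its start at the higher coordinate in the RefSeq promoter table. Peaks numbered 16 and 13 in c-Maf antibody libraries 3 and 4, and 39 and 8 in isotype libraries 3 and 4. Of all 76 peaks, 72 were held by their own list alone (94.7%), against 93.1% over the 5 windows. Sharing was rare in the whole series too. From lists of 15568 to 58732 peaks, 491 regions were held by both c-Maf antibody lists and no isotype list. Another 409 were held by both isotype lists and no c-Maf antibody list. Nothing is thus read from the number at Spock1.

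The main Spock1 site covered 183 bases at 57568514 to 57568696, inside the gene and 339.7 kb from its start. The pileup was 12.62 in c-Maf antibody library 3 and 9.87 in library 4, or 13 tags (interval 6.92 to 22.23) and 10 tags (4.8 to 18.39). It was the 24th peak by p-value in library 3 and the 66th in library 4, with fold enrichments of 8.69 and 7.08 and a −log10 q of 6.86 and 3.39. The longer peak of library 3, 183 bases, contained the whole peak of library 4, 79 bases, and the summits were 10 bases apart. The nearest isotype peaks lay 10.4 kb and 27.6 kb away in isotype libraries 3 and 4. At the input level here, 0.567 and 0.534 tags in the c-Maf antibody lists, 4 tags would have passed a p-value of 0.01 in an isotype library, so up to 3 could be present unlisted. Whether the site lies in an exon or an intron was not analysed here.

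Both neighbours of Spock1 among protein-coding genes are far from this site. On the side of the gene start lies Klhl3, an adaptor of a ubiquitin ligase, at 431.5 kb, with the microRNA gene Mir874 inside it at 454.4 kb. On the other side, within and past the end of Spock1, lie the long noncoding RNA genes Gm33240 at 117.6 kb, Gm33294 at 128.2 kb, 1700072F12Rik at 285.2 kb and Gm33197 at 322.1 kb, and the pseudogene Gm48176 at 291.2 kb. The nearest protein-coding gene there, Trpc7, a cation channel gene, is 672.5 kb away.

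A weaker Spock1 region was also held by both c-Maf antibody libraries and by no isotype list. It lay at 57849898 to 57850001, inside the gene and 58.4 kb from its start, with pileups of 5.82 (6 tags, interval 2.2 to 13.06) and 6.91 (7 tags, 2.81 to 14.42). The peaks shared 20 bases. Neither passed a q-value of 0.05, with a −log10 q of 0.28 and 0.86. A similar region stood just past the window, 104.8 kb outside the gene at 57316267 to 57316438, with pileups of 4.85 and 5.92 and no isotype peak. Just inside the limit of 100 kb, the peak farthest from Spock1 was 1 of isotype library 3 at 94.0 kb, with a pileup of 3.92.

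Strong single peaks at Spock1 came from both antibodies. In c-Maf antibody library 4 a peak at 57446911 to 57446975, 25.7 kb inside the gene, had a pileup of 7.89 and a −log10 q of 1.49. In isotype library 4 a peak at 57810037 to 57810092, 98.2 kb inside the gene, had a pileup of 7.85 and a −log10 q of 1.71. Each passed a q-value of 0.05 in its own list, and neither was found by the other library of its antibody.

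Spock2, the shortest of the genes at 28.9 kb, had 1 weak region shared by the c-Maf antibody libraries. The gene spans 60106257 to 60135198 on chromosome 10. The region lay 30.3 kb past the gene end at 60165502 to 60165614, with pileups of 5.82 in library 3 (6 tags, interval 2.2 to 13.06) and 3.95 in library 4 (4 tags, 1.09 to 10.24). Neither peak passed a q-value of 0.05, and they overlapped by 38 bases. Spock2 is not the nearest gene to it. The long noncoding RNA gene Gm51802 is 3.1 kb away and Chst3 is 15.9 kb away. Chst3 encodes a sulfotransferase that adds sulfate to chondroitin chains and is named here after its position was seen.

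Within the Spock2 window the other c-Maf antibody peaks were 3 in library 3, all outside the gene, and 1 in library 4, inside it. Isotype libraries 3 and 4 had 4 and 2 peaks, none inside the gene. The highest pileup in the window, 6.87, belonged to isotype library 4, 14.9 kb outside the gene.

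Spock3 showed no region shared by the c-Maf antibody libraries. It spans 62951000 to 63357101 on chromosome 8. c-Maf antibody library 3 had 4 peaks in the window, 1 of them inside the gene, with pileups of 4.85 to 6.79, and library 4 had none within 145.4 kb. Isotype libraries 3 and 4 had 18 and 2. The highest c-Maf antibody peak, at 63214974 to 63215112, overlapped a peak of isotype library 3 by 67 bases, with pileups of 6.79 and 5.87. This was the single region of the 5 windows held by a c-Maf antibody list and an isotype list together. Such overlap was uncommon over the whole lists too. For the 23434 peaks of c-Maf antibody library 3, 22265 regions had no isotype peak. For the 17620 peaks of library 4, 16543 regions had none. Nothing is thus read from the single region.

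**Figure D2:**
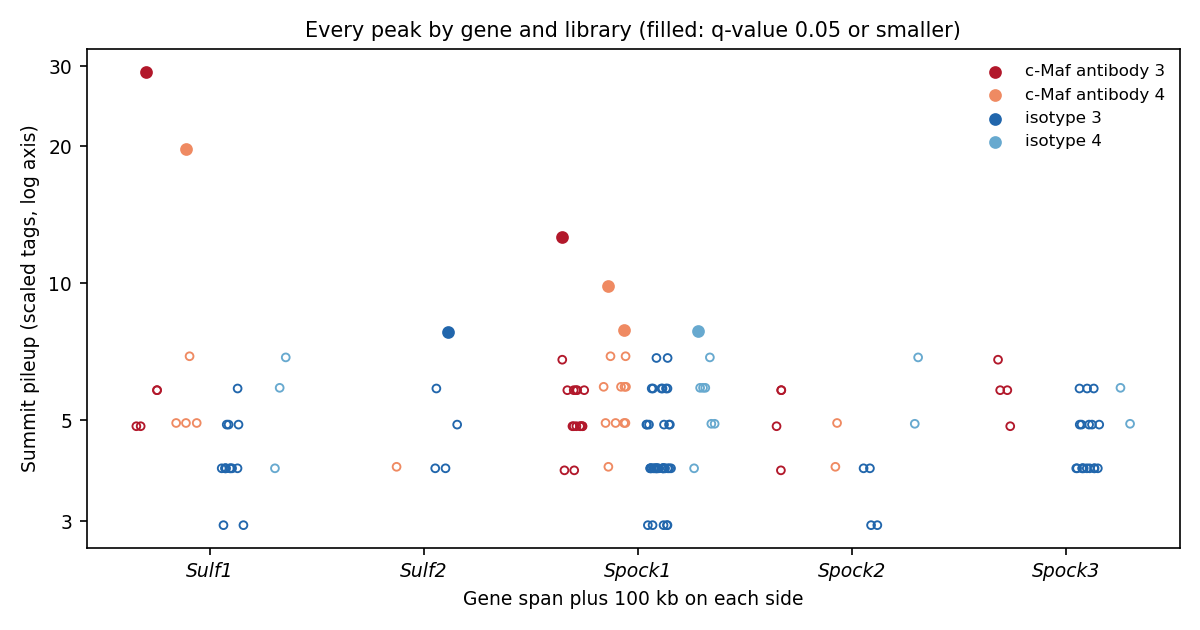
Summit pileup in scaled tags (log axis) of every peak of the 5 windows, by gene and library, with filled points for a q-value of 0.05 or smaller. The 4 highest points, 29.12 and 19.74 at Sulf1 and 12.62 and 9.87 at Spock1, belong to the c-Maf antibody libraries and to the sites that chose the genes. The filled isotype points are 7.83 at Sulf2 and 7.85 at Spock1.

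A region is called c-Maf-only where both c-Maf antibody lists have a peak and both isotype lists have none. The 5 windows held 4 of the 491 in the series and none of the 409 isotype-only regions, defined with the antibodies exchanged. By mean rank of p among the 473 that lie on assembled chromosomes, the Sulf1 site took the 1st place, the main Spock1 site the 10th, the weaker Spock1 region the 116th and the Spock2 region the 401st. Thus 3 of the 5 genes had a c-Maf-only region in their window, where 5.33% of all protein-coding genes did, and 7.33% of genes with a span of 100 kb or more. With peaks limited to a q-value of 0.05 or smaller, the genes were Sulf1 and Spock1, against 0.507% of all genes. Inside the gene span itself, Spock1 alone had a c-Maf-only region, where 0.946% of all genes did. These shares cannot be read as an excess, because the sites chose the genes. For isotype-only regions the count was 0 of 5, where 2.44% of all genes had one in the window, 4.36% of genes with a span of 100 kb or more, 0.48% of all genes inside the span and 0.064% of all genes at a q-value of 0.05 or smaller.

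**Figure D3:**
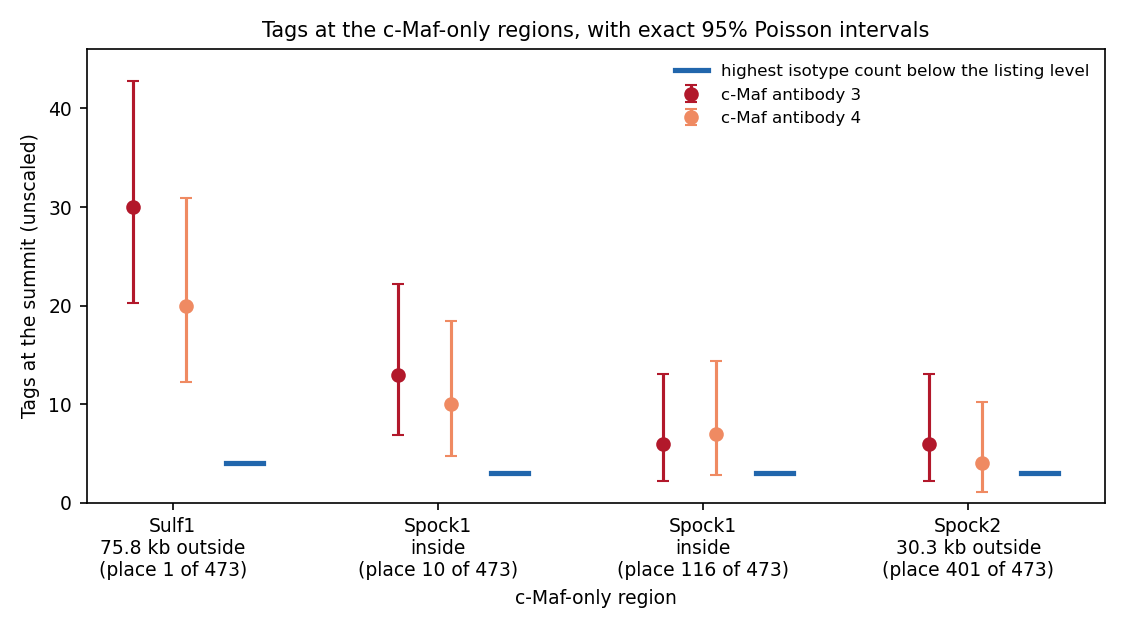
Unscaled tags at the summit of the 4 c-Maf-only regions in each c-Maf antibody library, with exact 95% Poisson intervals, and, as blue bars, the listing level of an isotype library less 1 tag, which is not a bound on the tags there. The bars use the input level of the c-Maf antibody lists, and the level in the isotype lists at these sites is not known. Elsewhere in the windows isotype library 3 listed peaks of 3 tags, at input levels of 0.421 to 0.431. A bar at 3 tags may therefore stand too high for that library. The counts run from 30 and 20 at Sulf1 to 6 and 4 at Spock2, and the Sulf1 and main Spock1 sites were chosen for high values, so their distance from the bars is a description and no test.

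Most protein-coding genes had a peak of each list in their own window, the span with 100 kb on each side, although these windows were mostly shorter, with a median of 0.217 Mb and an upper quartile of 0.244 Mb, against 0.229 to 0.687 Mb for the 5 genes. A peak near a gene therefore says little. c-Maf antibody library 3 had a peak in the window of 4 of the 5 genes (all protein-coding genes, 83.8%), c-Maf antibody library 4 in 4 of 5 (73.5%), isotype library 3 in 5 of 5 (95.2%) and isotype library 4 in 4 of 5 (66.8%). At a q-value of 0.05 or smaller there were 2 and 3 c-Maf antibody peaks in libraries 3 and 4, and 1 isotype peak in each isotype library, out of 29, 21, 80 and 15 peaks in the windows. Over the whole lists 3.06%, 2.87%, 0.415% and 2.62% of peaks passed that level. Of the 5 c-Maf antibody peaks, 4 are the peaks at the Sulf1 and main Spock1 sites that chose the genes, so nothing is read from their number.

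Peaks were dense at Spock1 with either antibody. In its window c-Maf antibody library 3 had 23.3 peaks per Mb, 2.73 times its average over the genome, and library 4 had 18.9, 2.96 times. Isotype libraries 3 and 4 had 56.8 and 11.6 peaks per Mb, 2.64 and 2.07 times their averages. The Sulf1 window was also denser than the genome in every list, by 1.44 to 2.12 times. At Sulf2 all lists were below their averages, at 0 to 0.826 times. Spock2 was denser in 3 lists, with 0.813 times in isotype library 3, and Spock3 in isotype library 3 alone, with 1.38 times. At Sulf1 and Spock1 the number of peaks was thus above average for both antibodies. The strongest sites there were higher than any isotype peak in their windows. These sites were chosen for their high values, so nothing is read from that height. Counts per gene were small, and no test was made.

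**Figure D4:**
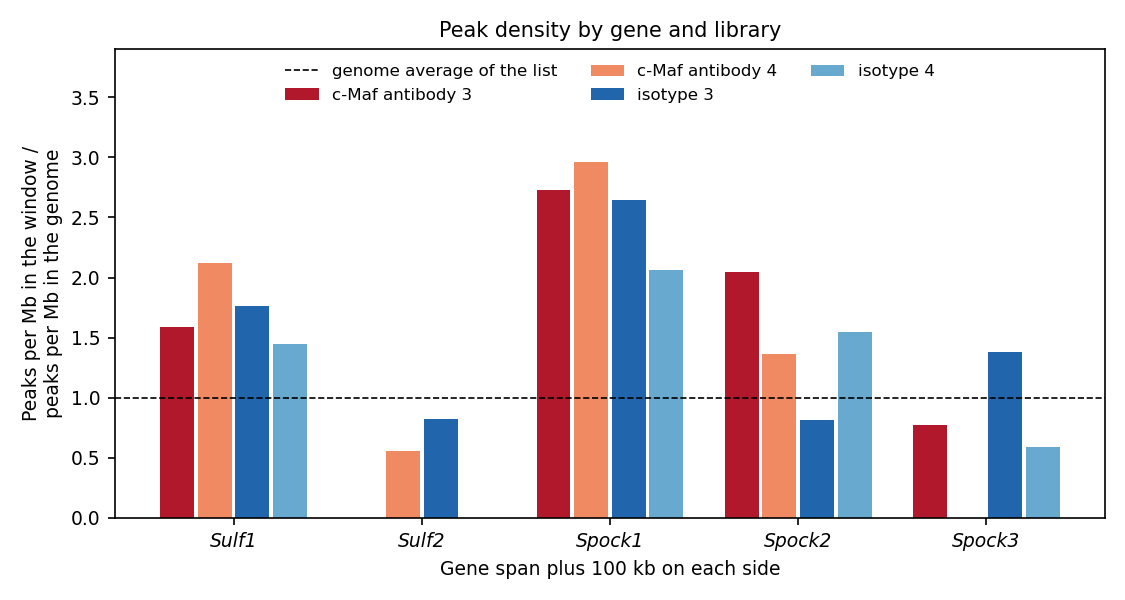
Peaks per Mb in each gene window divided by the peaks per Mb of the same list over the assembled chromosomes, for the 4 libraries, with the dashed line at the genome average. All 4 bars of Spock1 stand above 2, those of both antibodies included, and Sulf2 has bars in 2 libraries, both under 1.

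No list had a peak in the promoter window of the members in the RefSeq table, the 250 bases before a transcription start, which holds entries for 4 of the 5 genes: Sulf2, Spock1, Spock2 and Spock3. The windows of Spock1 (chr13:57908333-57908582, minus strand) and Spock2 (chr10:60106007-60106256, plus strand) are shown because these genes had c-Maf-only regions elsewhere, with motif matches in capitals:
Spock1: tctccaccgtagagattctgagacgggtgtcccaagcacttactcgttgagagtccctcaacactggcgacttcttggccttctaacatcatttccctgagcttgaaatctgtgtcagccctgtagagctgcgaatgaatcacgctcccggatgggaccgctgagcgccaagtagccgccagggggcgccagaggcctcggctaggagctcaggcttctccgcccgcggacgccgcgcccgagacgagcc
Spock2: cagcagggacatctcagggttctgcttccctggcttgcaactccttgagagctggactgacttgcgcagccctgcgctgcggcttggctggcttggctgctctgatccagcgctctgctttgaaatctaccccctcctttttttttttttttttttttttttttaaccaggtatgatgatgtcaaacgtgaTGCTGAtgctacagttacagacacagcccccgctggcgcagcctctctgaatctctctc
In c-Maf antibody libraries 3 and 4 the nearest peak to the Spock1 window was 16.4 kb and 44.7 kb away. The nearest to the Spock2 window was 42.8 kb and 7.7 kb away. In isotype libraries 3 and 4 these distances were 13.5 kb and 3.3 kb for Spock1, and 7.5 kb and 43.8 kb for Spock2. The peak closest to each window was thus an isotype peak.

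Both strands of these windows were searched for 6 motifs. They were the 2 full palindromic Maf recognition elements, T-MARE and C-MARE, their half-site TGCTGA, the bZIP cores TGACTCA of the first and TGACGTCA of the second, which overlap the half-sites in a full element, and GAGGAAG, a form of the ETS family motif. Spock2 had 1 half-site, in capitals above, 59 bases before the start. Of all 32851 RefSeq promoter windows, 16.1% hold that half-site, so a match in 1 gene is common. The Spock1 window and both Sulf2 windows had no match, and 1 of the 2 Spock3 windows had GAGGAAG in 2 places, a motif held by 10.6% of all windows. The other motifs are held by 4.46% (TGACTCA), 1.55% (TGACGTCA), 0.00304% (T-MARE) and 0.0% (C-MARE) of windows. A match is a run of letters and no evidence of binding. The letters of the Sulf1 and Spock1 sites themselves were not analysed here.

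The c-Maf-only and isotype-only regions were also counted at other genes of the pathway. Of 80 genes in 7 lists, 2 held a c-Maf-only region in their windows (2.5%, against 5.33% of all protein-coding genes) and 2 had an isotype-only region (2.5%, against 2.44%). None of these 4 regions lay inside a listed gene. Of the 11 genes that build heparan sulfate chains 1 had a c-Maf-only region, Ext2, which encodes a subunit of the polymerase that extends the chain. That region was strong, with pileups of 20.38 and 10.86, fold enrichments of 10.69 and 5.93 and a −log10 q of 13.2 and 2.22 in c-Maf antibody libraries 3 and 4. It took the 16th place among c-Maf-only regions. It lay on chromosome 2 at 93599889 to 93600037, 95.6 kb from Ext2, and Alx4, a homeobox gene, was closer at 42.4 kb.

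Among the 16 genes whose products modify the chain, such as the sulfotransferases that add sulfate groups, none had a c-Maf-only region and 2 had an isotype-only region. These were Hs3st3b1 at 81.9 kb and Hs3st4 at 97.9 kb, both sulfotransferase genes, with isotype pileups of 2.94 in library 3 and 4.91 in library 4 at each. The −log10 q was 0.0 in both isotype libraries at each, and 2.94 is the lowest pileup of the isotype library 3 list. The region at Hs3st3b1 lay inside Cox10, which acts in haem synthesis. Of 7 proteases linked to testicans 1 had a c-Maf-only region. It lay 48.1 kb from Mmp14, a membrane-bound matrix metalloproteinase gene, on chromosome 14 at 54383422 to 54383538 and inside Slc7a7, an amino acid transporter gene, with pileups of 6.79 and 4.93. The −log10 q at that region was 0.56 in c-Maf antibody library 3 and 0.0 in library 4. By either definition, none was found at the 10 genes listed under heparan sulfate breakdown or the 16 listed as heparan sulfate core proteins, such as the syndecans and glypicans. The same held for the 15 listed as chondroitin and dermatan sulfate core proteins and the 5 other SPARC family genes. List names are broad, and some listed genes belong mainly to other sulfated chains. Of all protein-coding genes 5.33% had a c-Maf-only and 2.44% an isotype-only region, so nothing is read from counts in lists this short.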

How the data were processed

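Per the file headers, the authors called peaks separately in each antibody library with MACS 2.1.1.20160309 on single-end tags at a p-value of 0.01, keeping 1 tag per position and scaling the larger library down, against the input of number 4. They set a human effective genome size for these mouse libraries, and how far the peak lists depend on that setting was not tested. Build mm10, FastQC, MACS 1.4.2 and MACS2 are named in the submitters' processing notes. An aligner was not stated in the sources used here. The deposited values are the pileup signal at the summit, the fold enrichment (a ratio), the −log10 p and −log10 q, and the peak length in bp as another column per the file headers. They were used within each list.

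Tags were recovered as pileup divided by the scaling factor, and 100.0% of peaks with a pileup of 50 or less gave a whole number within 0.1. Peaks overlapping by at least 1 bp were merged across lists. Chromosome lengths for densities are the largest peak ends. With 2 libraries an antibody and genes chosen from these peaks, no test was run, and intervals cover counting error. The members, lists and definitions were chosen with earlier results of these data known. Named genes are the members, all genes within 500 kb of the 2 strongest sites or the nearest on a side, and listed genes with an exclusive region; exceptions are said in place. Region merging was run on simulated lists in which planted peaks always overlapped and the others never touched, which checks the code only. Analyses used Python 3.11.15, pandas 2.3.3 and scipy 1.17.1.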

Additional observations from a re-analysis of the deposited data

How the results depend on the processing

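The 4 c-Maf-only regions of the 5 windows fell to 2 at p of 1e-5 or at q of 0.05, where the Sulf1 and main Spock1 sites were left, and to 2 with a window of 10 kb, which leaves out the Sulf1 and Spock2 regions by construction. At 50% reciprocal overlap 1 was left, the Sulf1 site, because the Spock1 peak of library 4 covers less than that share of the peak of library 3. Summits within 200 bp gave 4, a window of 50 kb 3 and lists of equal length 3. With 1 library left out the count ranged from 4 to 28, since a lone c-Maf antibody list is not filtered by a replicate (21 without number 3, 28 without number 4). Isotype-only regions stayed at 0 in each of these settings except without isotype library 3 (15) or 4 (79). Pathway genes that held c-Maf-only regions numbered 1 of 80 at p of 1e-5 (all protein-coding genes, 1.11%), q of 0.05 (0.507%), 50% reciprocal overlap (3.14%) and 50 kb (3.17%), 0 at 10 kb (1.48%) and 5 with summits within 200 bp (5.99%), and spanned 2 (5.48%) to 67 (83.0%) when 1 library was dropped. Those with an isotype-only region numbered 0 at p of 1e-5 (0.247%), q of 0.05 (0.064%), 50 kb (1.45%), 10 kb (0.681%) and equal length (0.877%), 1 at 50% reciprocal overlap (1.38%), and spanned 2 (2.61%) to 77 (95.1%) when 1 library was dropped. The larger counts thus go with larger shares of all genes. The lower c-Maf antibody pileup was 19.74 at the Sulf1 site and 9.87 at the main Spock1 site, both from library 4. Without c-Maf antibody library 4 it became 29.12 and 12.62, the pileups of library 3. Their tags lie inside the counting intervals of library 4, but this only restates the 2 libraries that chose the sites.

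With the number as a replicate block, where each c-Maf antibody list was set against the isotype list of its own number, the counts were 4, 0, 2 and 2, so none changed. No label says that equal numbers share an animal, and 2 pairs are too few to show it.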
